A study of Mus musculus with 16 samples.

Results

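The 6 genes followed here belong to the switch by which dopamine sets the activity of protein phosphatase 1 (PP1) in striatal neurons. Members were all isoforms that the deposited annotation assigns to Ppp1r1b (DARPP-32), Ppp1r1a (inhibitor-1), Ppp1ca, Ppp1cb, Ppp1cc (the PP1 catalytic subunits α, β and γ) and Ppp1r9b (spinophilin), chosen by gene name. They are 6 of the 23698 genes with at least 1 read, and 26228 reads were assigned to them over all samples. Long-read sequencing (PacBio Iso-seq), in which a full-length cDNA molecule is read from end to end, had been applied to the cortex and striatum of male mice aged 3 months. R6/2 mice (B6CBA-Tg(HDexon1)62Gpb/3J) express the first exon of mutant human HTT, with its expanded CAG repeat, on top of their own intact mouse Htt genes and so model Huntington's disease (HD) with a fragment of the protein. Non-transgenic (NT) mice of the same B6CBA background served as controls. Each of the 4 groups, NT cortex, R6/2 cortex, NT striatum and R6/2 striatum, held 4 samples, 16 in all. The counts cover mouse genes, so they hold no value for the transgene itself. Whether the cortex and the striatum with the same number came from 1 mouse is not given by the labels.

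DARPP-32 is the best known phosphoprotein of medium spiny neurons (MSNs), the projection neurons of the striatum that receive dopamine. Dopamine acting on D1 receptors raises cAMP, protein kinase A phosphorylates DARPP-32 at threonine 34, and the phosphorylated form is a strong inhibitor of PP1. D2 receptor signalling lowers cAMP, and calcineurin removes the phosphate. Inhibitor-1 is the close relative of DARPP-32 with a wider distribution in the brain and is phosphorylated by the same kinase at threonine 35. PP1 itself is a small catalytic subunit that takes its place and substrates from partner proteins, among them spinophilin, which holds it in dendritic spines.

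The inhibitory threonine of both inhibitors lies in exon 2, and the isoforms of Ppp1r1b described further on differ in whether their coding sequence includes the codon for threonine 34. The exons are shown from the GENCODE M21 annotation of mm10, with the threonine codon in capitals. In Ppp1r1b the second run of capitals marks the ATG at which the coding sequence of the shorter isoform Ppp1r1b-002 begins, after the codon for threonine 34. The Ppp1r1b exon covers chr11:98350569-98350629 on the plus strand, and the Ppp1r1a exon covers chr15:103534350-103534410 on the minus strand. Both are 61 nt long, and 41 of the 61 positions are identical.
Ppp1r1b exon 2: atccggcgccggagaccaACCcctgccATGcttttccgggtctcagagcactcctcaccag
Ppp1r1a exon 2: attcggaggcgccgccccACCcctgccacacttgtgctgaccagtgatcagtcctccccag

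The 2 main isoforms of Ppp1cc share 943 coding nt and then part, because the γ1 form reads on into its last exon and the γ2 form splices to a further exon. These ends are shown because only a read that reaches them can tell the forms apart. Capitals mark the stop codon. The γ1 end lies at chr5:122174116-122174144 and the γ2 end at chr5:122174980-122175050, both on the plus strand.
Ppp1cc-001 coding end (γ1): gtatgatcacaaagcaagcaaagaaaTAG
Ppp1cc-002 coding end (γ2): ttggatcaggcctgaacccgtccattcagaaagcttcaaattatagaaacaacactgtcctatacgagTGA

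Each sample held between 252885 and 1496196 reads, of which 203081 to 1350502 belonged to genes. For 4 striatal samples (NT 1, NT 2, R6/2 2 and R6/2 3) 2 sets of counts had been deposited and were summed. These 4 stood apart from the other 4 striatal samples, which had 1 set, with fewer mitochondrial reads (0.408 to 0.851% against 1.41 to 3.27%) and longer isoforms per read (mean 2141 to 2225 nt against 1618 to 1885 nt). Because the number of sets divided each genotype evenly, the striatal difference of each of the 6 genes is also given within it. These values are log2 ratios of the group means and not fitted differences. Each compares 2 NT with 2 R6/2 samples, so a lack of overlap there says little. The labelled regions were checked against defining genes. The summed level of 12 genes of MSNs, all 12 of them detected, was 7613 to 9285 CPM in NT striatum and 310 to 377 in NT cortex, and that of 8 genes of cortical excitatory neurons was 137 to 209 in NT cortex and 5.07 to 56.6 in NT striatum. CPM are read counts scaled to the size of the library, here its gene reads after TMM correction, and they are not divided by transcript length. Choroid plexus genes reached a sum of 9575 CPM in striatum NT 3, while the lowest NT striatum sample had 36.8.

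Ppp1r1b, on chr11:98348404-98357796, gave the largest number of reads of the 6 genes, 15643, and separated all 4 groups. In NT striatum it was measured at 3461, 5804.5, 3673 and 2559 CPM, from 2630, 7155, 2236 and 505 reads. In R6/2 striatum the values were 770.0, 870.4, 1281 and 596 CPM, from 508, 804, 1206 and 243 reads. The highest R6/2 value thus lay well below the lowest NT value, and the mean was 4.41-fold lower (879 ± 290.5 against 3874 ± 1374 CPM, mean ± SD, n = 4 each). In the cortex, where few cells make DARPP-32, NT samples held 234, 192, 153 and 167 CPM, from 83, 85, 30 and 83 reads. R6/2 cortex held 38.2, 25.5, 40.5 and 36.0 CPM, from 20, 12, 28 and 15 reads. Here too the groups did not overlap, and the mean was 5.32-fold lower (35.04 ± 6.63 against 187 ± 35.6 CPM). The order NT striatum, R6/2 striatum, NT cortex, R6/2 cortex held with no overlap between neighbours.

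The fall of Ppp1r1b in R6/2 cortex was a log2 difference of −2.38 (SE 0.219, 95% interval −2.84 to −1.93, adjusted p = 1.74e-06 by edgeR's quasi-likelihood test over 6128 genes), the fourth lowest of all differences there. It remained under each of the 16 alternatives tried for the cortex. In the striatum the log2 difference was −2.16 (SE 0.327, −2.89 to −1.43, adjusted p = 0.0328 over 7694 genes). As a log2 ratio of group means it was −2.19 within the samples with 1 set of counts and −2.11 within those with 2 sets. Neither comparison, of 2 against 2 samples, overlapped. The striatal call depended on single samples. It held without NT 1 (adjusted p = 0.0455) and without NT 4 (0.0242), and the adjusted p was 0.0951 without NT 2, 0.135 without NT 3, and 0.185, 0.181, 0.0847 and 0.100 without R6/2 1, 2, 3 and 4, while the log2 difference stayed between −2.35 and −1.91. With the number of sets as a term in the model the adjusted p was 2.03e-04, and over all 20 alternatives it ranged from 3.41e-08 to 0.185.

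The summed level of the 12 MSN genes moved with Ppp1r1b in both regions. Their summed level was 1637 to 2463 CPM in R6/2 striatum against 7613 to 9285 in NT striatum, and 138 to 176 in R6/2 cortex against 310 to 377 in NT cortex, with all 12 detected in each group. The sum does not speak for each gene, since Penk alone held a mean of 5553 of 8494 CPM in NT and 680 of 1957 in R6/2 striatum. Among the others, Drd1 (57.4 ± 44.1 and 43.8 ± 17.6 CPM) and Adora2a overlapped between striatal genotypes, whereas Drd2, Rgs9, Adcy5 and Pde10a did not. Summed astrocyte genes were also lower, 1315 to 1849 against 1966 to 3905 CPM in the striatum and 1344 to 1833 against 2295 to 3633 in the cortex, whereas oligodendrocyte genes overlapped between genotypes in both regions (13329 to 19970 against 13258 to 31265, and 3682 to 5805 against 3679 to 7422 CPM). Their part in the result was not tested. In bulk tissue, fewer cells of a type and less RNA per cell cannot be told apart.

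**Figure D1:**
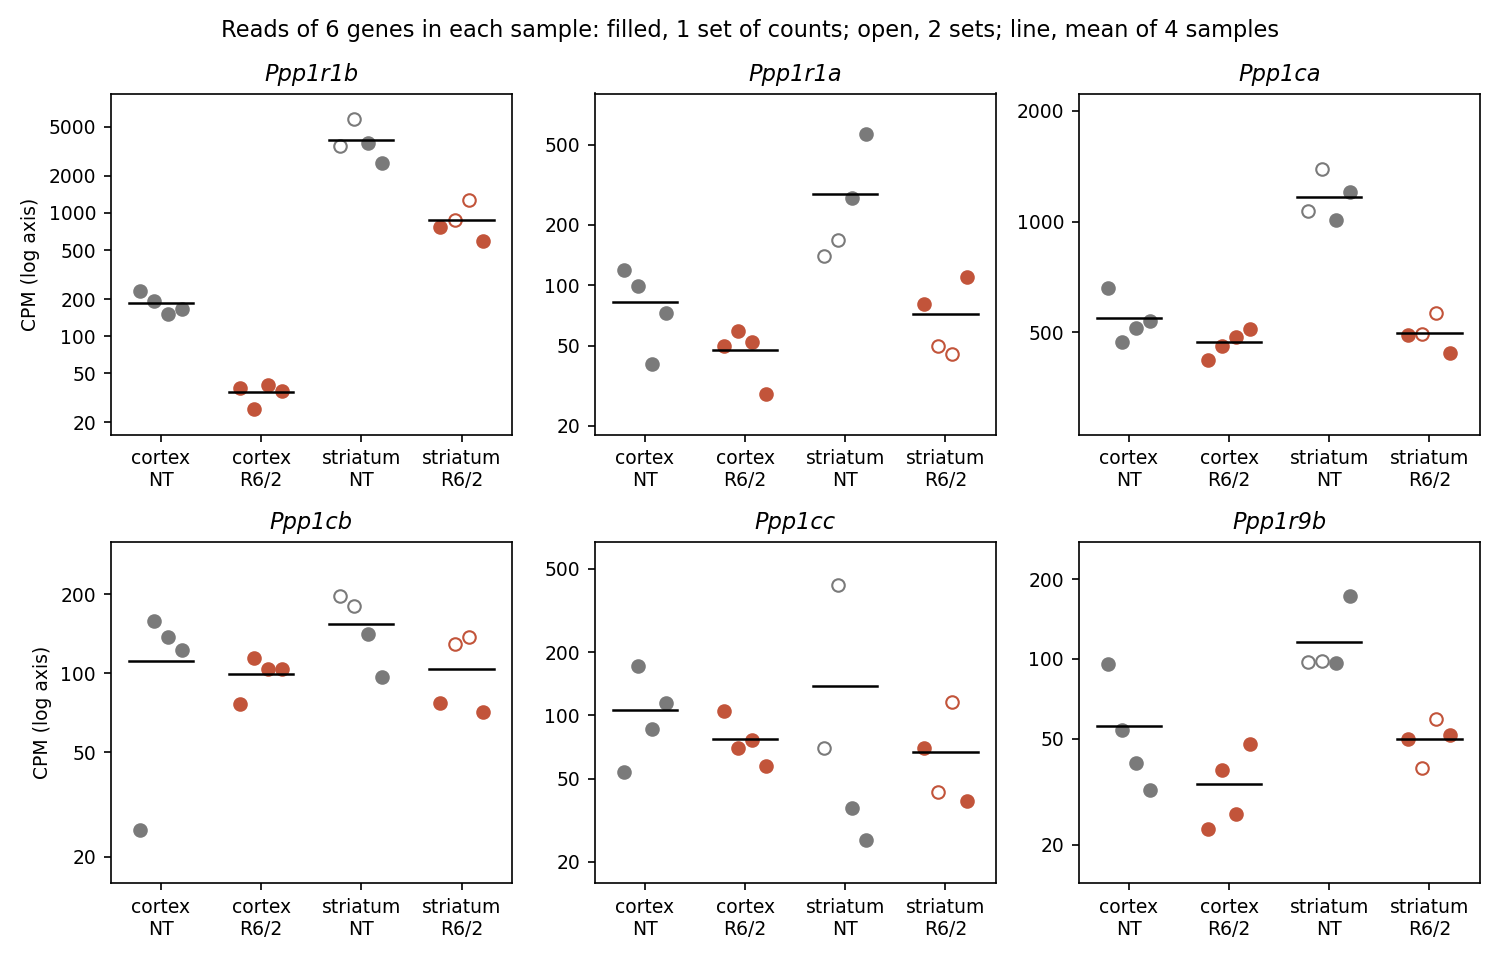
CPM of the 6 genes in each of the 16 samples, on log axes that differ between panels, with filled points for samples with 1 set of counts, open points for those with 2 sets and a line at the mean of 4. Ppp1r1b falls in 3 separate steps from NT striatum (mean 3874 CPM) to R6/2 cortex (35.04 CPM), whereas for Ppp1r1a, Ppp1ca and Ppp1r9b only NT striatum stands above the other groups.

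Ppp1r1a, on chr15:103530279-103538003, was read far less often, with 1009 reads in all. NT striatum held 140, 169, 271 and 563 CPM, from 106, 208, 165 and 111 reads. R6/2 striatum held 80.3, 49.8, 45.7 and 110.4 CPM, from 53, 46, 43 and 45 reads. All R6/2 values were below all NT values, and the mean was 3.99-fold lower (71.6 ± 30.2 against 285 ± 193 CPM). The spread in NT striatum was wide, and NT 4, the shallowest striatal sample, with 111 reads of the gene, lay highest. The log2 difference of −2.01 (SE 0.528, −3.19 to −0.83) did not pass the test (edgeR adjusted p = 0.167). As a log2 ratio of group means it was −2.13 within samples with 1 set and −1.69 within those with 2 sets. The edgeR fit with the number of sets as a term gave −1.91 with an adjusted p of 5.48e-04. Over the 20 alternatives the adjusted p ranged from 5.30e-04 to 0.428, and 6 of them called the gene lower.

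In the cortex Ppp1r1a was measured at 118, 99.4, 40.7 and 72.6 CPM in NT and at 49.7, 59.4, 52.0 and 28.8 CPM in R6/2 mice. The ranges overlapped through NT 3, which had 8 reads. The log2 difference was −0.82 (SE 0.275, −1.40 to −0.25) with an edgeR adjusted p of 0.120, and without NT 3 it was −0.98 with an adjusted p of 0.0388, the only one of 16 alternatives that called it.

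Ppp1ca, on chr19:4192065-4195420, encodes the catalytic subunit α and supplied most PP1 reads. It was measured at 1067, 1393, 1009 and 1201 CPM in NT striatum (811, 1717, 614 and 237 reads). In R6/2 striatum it was measured at 493, 494, 564 and 439 CPM (325, 456, 531 and 179 reads). The groups lay far apart and each was narrow, so that the mean was 2.35-fold lower in R6/2 mice (497 ± 51.1 against 1167 ± 171 CPM). In the cortex the NT samples held 659.9, 472, 514 and 538 CPM and the R6/2 samples 422, 459, 487 and 512 CPM. The cortical groups overlapped and their means differed 1.16-fold. R6/2 striatum therefore stood at the level of both cortical groups, while NT striatum stood above all 3.

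The striatal log2 difference of Ppp1ca was −1.24 (SE 0.219, −1.73 to −0.75, edgeR adjusted p = 0.0470). As a log2 ratio of group means it was −1.25 and −1.22 within samples with 1 and 2 sets of counts. The cortical difference was −0.20 (SE 0.183, −0.58 to 0.18, adjusted p = 0.625), an interval that leaves out a fall of the striatal size. The striatal call stood close to the threshold. Leaving out any 1 of the 8 samples gave an adjusted p between 0.0589 (without NT 4) and 0.266 (without R6/2 2), with a log2 difference of −1.30 to −1.15, and over all 20 alternatives the adjusted p ranged from 1.87e-07 to 0.266, with 4 calls.

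Ppp1cb, the β subunit, on chr5:32458843-32517433, was measured at 197, 180.1, 141 and 96.3 CPM in NT striatum and at 77.3, 129, 137 and 71.2 CPM in R6/2 striatum. The groups overlapped as a whole. Samples with the same number of count sets, 2 against 2, did not, with a log2 ratio of group means of −0.68 within 1 set and −0.51 within 2 sets. The fitted difference was −0.60 (SE 0.257, −1.17 to −0.02, adjusted p = 0.484), and with the number of sets as a term −0.61 (adjusted p = 0.0454). Over the 20 striatal alternatives its adjusted p ranged from 0.0454 to 0.790. In the cortex NT samples held 25.4, 158, 137 and 123 CPM and R6/2 samples 76.4, 115, 104 and 103 CPM, a log2 difference of −0.14 (−0.79 to 0.50, edgeR adjusted p = 0.870). Cortex NT 1, with 9 reads of this long transcript, was lowest, and without NT 2 the sign turned (0.11).

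Ppp1cc, the γ subunit, on chr5:122158278-122175273, was the most uneven gene. NT striatum held 69.7, 420.2, 36.1 and 25.3 CPM, from 53, 518, 22 and 5 reads. R6/2 striatum held 69.7, 43.3, 116 and 39.3 CPM, from 46, 40, 109 and 16 reads. NT 2 alone lay above the R6/2 samples, and both of its count sets were high (275 and 243 reads). The fitted log2 difference of −1.08 (−2.78 to 0.62, edgeR adjusted p = 0.787) became 0.53 without NT 2. Within samples with 1 set of counts the R6/2 values lay above the NT values (log2 ratio of group means 0.83). Within those with 2 sets this ratio was −1.62 with overlapping ranges. In the cortex the values were 53.6, 172, 86.5 and 115 CPM in NT and 105, 70.1, 76.6 and 57.6 CPM in R6/2 mice, which overlapped (log2 difference −0.48, −1.07 to 0.10, edgeR adjusted p = 0.394).

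Reads of the 3 catalytic subunits were also summed, as counts of molecules read without regard to their different lengths. The sum was 1186 to 1993 CPM in NT striatum and 550 to 817 CPM in R6/2 striatum. In the cortex it was 738 to 802 CPM in NT and 604 to 672 CPM in R6/2 samples. Neither pair overlapped. The α subunit made up a mean of 81.4% of the sum in NT striatum and of 71.8 to 75.0% in the other 3 groups. The samples overlapped, at 69.9 to 90.8% in NT striatum and 69.1 to 79.9% in R6/2 striatum. In the cortex they lay at 58.9 to 89.3% in NT and 69.9 to 76.1% in R6/2 mice.

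The number of DARPP-32 reads per Ppp1ca read relates inhibitor and main catalytic transcript within a sample and does not depend on the scaling of libraries. It was 3.24, 4.17, 3.64 and 2.13 in NT striatum and 1.56, 1.76, 2.27 and 1.36 in R6/2 striatum. These overlapped, because NT 4 lay below R6/2 3, but samples with the same number of count sets, only 2 against 2, did not. In the cortex it was 0.355, 0.407, 0.297 and 0.311 in NT and 0.0905, 0.0556, 0.0831 and 0.0704 in R6/2 samples, without overlap. In each of the 8 striatal samples DARPP-32 was read more often than Ppp1ca, and in each of the 8 cortical samples less often.

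Ppp1r9b, on chr11:94991035-95006899, encodes spinophilin, the spine scaffold of PP1. NT striatum held 97.4, 98.2, 96.9 and 172 CPM, from 74, 121, 59 and 34 reads. R6/2 striatum held 50.02, 39.0, 59.5 and 51.5 CPM, from 33, 36, 56 and 21 reads. The groups did not overlap and the mean was 2.32-fold lower (49.99 ± 8.43 against 116 ± 37.4 CPM). The log2 difference of −1.20 (SE 0.280, −1.82 to −0.57) did not pass the test (edgeR adjusted p = 0.122). As a log2 ratio of group means it was −1.41 within samples with 1 set of counts and −0.99 within those with 2 sets. Of 19 alternatives, 2 called the fitted difference, in a range of adjusted p from 0.00971 to 0.345. With the number of sets as a term it was −1.14 (edgeR adjusted p = 0.00971), and by DESeq2 −1.17 (0.0331). In the cortex, NT samples held 95.9, 54.2, 40.7 and 32.3 CPM and R6/2 samples 22.9, 38.2, 26.0 and 48.0 CPM, from 8 to 34 reads a sample, and overlapped (−0.75, −1.44 to −0.05, adjusted p = 0.255).

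**Figure D2:**
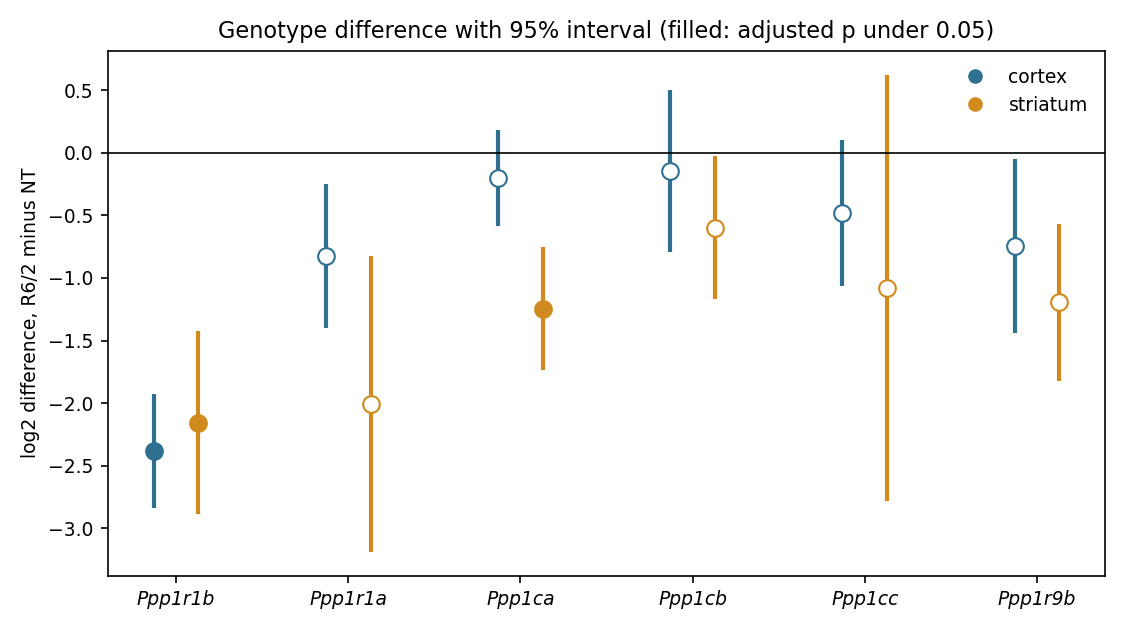
Fitted log2 difference between R6/2 and NT mice for each of the 6 genes in cortex and striatum, with 95% intervals, and filled points where the adjusted p was under 0.05. Ppp1r1b lies at −2.38 in the cortex and −2.16 in the striatum, while Ppp1ca lies at −1.24 in the striatum and −0.20 in the cortex.

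Counted together, 1 of the 6 genes was lower in R6/2 cortex, Ppp1r1b, where 2.77% of all tested genes were called lower and 3.23% were called at all. In the striatum 2 of 6 were lower, Ppp1r1b and Ppp1ca, where 0.507% of all tested genes were called, all of them lower. Without adjustment, 3 of 6 cortical and 5 of 6 striatal p values were under 0.05. Over all tested genes, 1055 of 6128 cortical and 762 of 7694 striatal ones were. The ranges of the 2 genotypes did not overlap for 1 gene in the cortex, where 6.54% of all tested genes lay wholly lower, and for 4 in the striatum. There 4.18% lay wholly lower, out of the 7075 tested genes that also passed the filter on low counts over all 16 samples. With DESeq2 the counts were 1 in the cortex (3.84% of 3989 genes lower, a smaller base than the 6128 of edgeR) and 4 in the striatum (1.54% of 7685). With the number of sets as a term in edgeR the count was 5 in the striatum (3.82% of all tested genes lower), all but Ppp1cc. All 6 fitted differences were below 0 in each region, with a median of −0.62 in the cortex and −1.22 in the striatum against 0.0151 and −0.0113 over all tested genes.

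Whether the genotype difference itself differed between regions was tested with an interaction term over all 16 samples. None of the 6 genes passed by edgeR, where 0.0136% of all tested genes did, and 1 of 6, Ppp1ca, had an unadjusted p under 0.05. Over all tested genes, 189 of 7360 had one. For Ppp1ca the difference in R6/2 mice was lower in the striatum than in the cortex by a log2 of −1.01 (−1.58 to −0.44, edgeR adjusted p = 0.9998). DESeq2 gave −1.001 with an adjusted p of 0.0264, the lowest of 25 alternatives and the only one under 0.05, and called 0.0272% of all genes. For Ppp1r1b the interaction was 0.26 (−0.58 to 1.10), so the cortical and the striatal fall of DARPP-32 were not distinguishable at this precision. The fit of Ppp1r1a gave −1.15 (−2.41 to 0.10).

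Between regions, 4 of the 6 genes were higher in the striatum of NT mice, where 7.31% of all tested genes were called higher. Ppp1r1b led with a log2 difference of 4.37 (SE 0.319, 3.70 to 5.04, adjusted p = 9.00e-08 by edgeR), the 13th highest of 7360 genes and a 20.8-fold ratio of means. Ppp1r1a followed with 1.69 (SE 0.415, adjusted p = 0.00999), Ppp1ca with 1.10 (SE 0.194, 8.34e-04) and Ppp1r9b with 0.998 (SE 0.316, 0.0400). Ppp1cb (0.51, adjusted p = 0.385) and Ppp1cc (0.45, 0.675) did not pass. In R6/2 mice only Ppp1r1b was higher in the striatum, by 4.64 (SE 0.331, adjusted p = 8.43e-08), where 5.75% of all tested genes were. There Ppp1ca differed by 0.08 (−0.32 to 0.49, adjusted p = 0.837), Ppp1r1a by 0.54 (0.486) and Ppp1r9b by 0.59 (0.286). The region calls of Ppp1r1b, Ppp1r1a and Ppp1ca in NT mice and of Ppp1r1b in R6/2 mice were kept in each of 26 alternatives. That of Ppp1r9b was lost without cortex NT 2 (0.0954), NT 3 (0.102) or NT 4 (0.0974), cortex R6/2 2 (0.0505) or striatum NT 4 (0.0851), and with the NT samples alone (0.0781). The sign of Ppp1cc turned without striatum NT 2 (−1.19), and in samples with 1 set of counts it was lower in the striatum (−1.73, edgeR adjusted p = 0.00339). Only striatal samples have 2 sets of counts, so the part of library differences in a region difference cannot be told apart where both kinds are used.

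The genes around DARPP-32 were taken as 3 lists. The dopamine and cAMP cascade list holds 20 genes for receptors, G proteins, adenylyl cyclase, protein kinase A subunits, phosphodiesterases and their partners. In R6/2 striatum 4 of its 21 tested gene IDs were lower (Pde2a has 2 IDs) and none was higher, where 0.507% of all tested genes were called, with a median log2 difference of −0.77 against −0.0113 over all genes. Rgs9, which speeds the shut-off of G proteins in MSNs, fell from 749 ± 133 to 148 ± 51.4 CPM (log2 difference −2.36, adjusted p = 0.00718). Adcy5, the main striatal adenylyl cyclase, fell from 261 ± 29.3 to 73.0 ± 4.75 CPM (−1.85, 0.00718), and Pde10a, a phosphodiesterase enriched in MSNs, fell from 245 ± 27.9 to 55.2 ± 16.2 CPM (−2.17, 0.00718). Arpp21, another cAMP-regulated phosphoprotein, fell from 1594 ± 194 to 550 ± 64.3 CPM (−1.55, 0.0357, edgeR adjusted p as for the others). DESeq2 called 6 and edgeR with the number of sets as a term 9 of the 21, all lower. Of all genes, these fits called 1.54% and 3.82% lower. In the cortex 1 of 14 tested genes was lower, Akap5, an anchor of protein kinase A and calcineurin at synapses (93.6 ± 23.4 to 50.1 ± 7.74 CPM, −0.87, edgeR adjusted p = 0.0412), where 2.77% of all tested genes were called lower, and the list's median was −0.20. DESeq2 did not call Akap5 there and called Arpp21 lower.

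Between regions in NT mice, 12 of the 21 were higher in the striatum and none was lower, where 7.31% of all tested genes were higher and 7.68% lower, with a median of 1.83 against 0.0135 over all genes. The differences of the 8 with the lowest adjusted p were 4.78 for Rgs9, 4.36 for Pde10a, 2.75 for Adcy5, 4.94 for Gng7, 1.83 for Arpp21, 3.12 for Gnal, 3.63 for Adora2a and 3.96 for Pde1b. Gng7 and Gnal encode the γ and α subunits of the striatal stimulatory G protein, and Adora2a the adenosine receptor of D2-type MSNs. In R6/2 mice 13 of 21 were higher in the striatum and none was lower, where 5.75% of all tested genes were higher and 5.67% lower, with a median of 0.94 against −0.0020 over all genes. DESeq2 called 11 and 13 of them, all higher. The interaction called none of the 21 (3 at an unadjusted p under 0.05 in edgeR, where 189 of 7360 genes were, and none by DESeq2).

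The list of other PP1 regulators and inhibitors holds 32 genes, of which 16 were tested in the cortex and 20 in the striatum. In the cortex Ppp1r37 was the only one called, falling from 84.9 ± 38.1 to 29.6 ± 6.78 CPM (−1.47, edgeR adjusted p = 0.00926), and the median was −0.34. That is 1 of 16, where 2.77% of all tested genes were called lower. In the striatum edgeR called none, with 6 at an unadjusted p under 0.05 (Ppp1r9a, Phactr1, Ppp1r7, Ppp1r2, Ppp1r3c and Phactr3) and a median of −0.28. There 0.507% of all tested genes were called, and 762 of 7694 had an unadjusted p under 0.05. DESeq2 called Phactr1 and Ppp1r9a lower, and edgeR with the number of sets as a term called these and Ppp1r2 and Ppp1r7. Of all genes, these fits called 1.54% and 3.82% lower. In NT mice 3 of these regulators were higher in the striatum (Ppp1r21 by 1.83, Ppp1r2 by 1.18 and Phactr1 by 0.75) and 3 lower (Ppp1r12b by −1.60, Ppp1r13b by −1.23 and Ppp1r37 by −1.36). Ppp1r2 is inhibitor-2, and Ppp1r12b a myosin-targeting subunit of PP1. In R6/2 mice Ppp1r21 (1.21) was higher and Ppp1r12b (−2.16), Ppp1r13b (−1.34) and Ppp1r14c (−1.68) were lower in the striatum. Over all genes, 7.31% were higher and 7.68% lower in NT mice and 5.75% and 5.67% in R6/2 mice. DESeq2 called these regulators too, and in addition Ppp1r7 higher in NT and Ppp1r2 and Ppp1r14a higher in R6/2 mice.

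The last list holds 17 genes for kinases and phosphatases that act on DARPP-32 other than protein kinase A, 16 of which were tested in each region. In the cortex Ppp3ca, the catalytic subunit of calcineurin, fell from 518 ± 148 to 265 ± 31.7 CPM (−0.95, edgeR adjusted p = 0.0164), and no other was called. That is 1 of 16, where 2.77% of all tested genes were called lower. In the striatum edgeR called none, with 2 at an unadjusted p under 0.05. Of all tested genes there, 0.507% were called and 762 of 7694 had an unadjusted p under 0.05. DESeq2 called Ppp3ca lower, and edgeR with the number of sets as a term Ppp3ca and Ppp2r2a. Of all genes, these fits called 1.54% and 3.82% lower. The medians were −0.16 and −0.21. Between regions in NT mice, Ppp2r2a (0.82), Ppp3ca (1.08) and Ppp2r5d (1.64) were higher and Csnk1e (−1.18) was lower in the striatum. In R6/2 mice Ppp2r5d (1.96) was higher and Csnk1e (−1.07) lower, the latter not called by DESeq2. The shares of all tested genes were 7.31% higher and 7.68% lower in NT mice, and 5.75% and 5.67% in R6/2 mice.

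**Figure D3:**
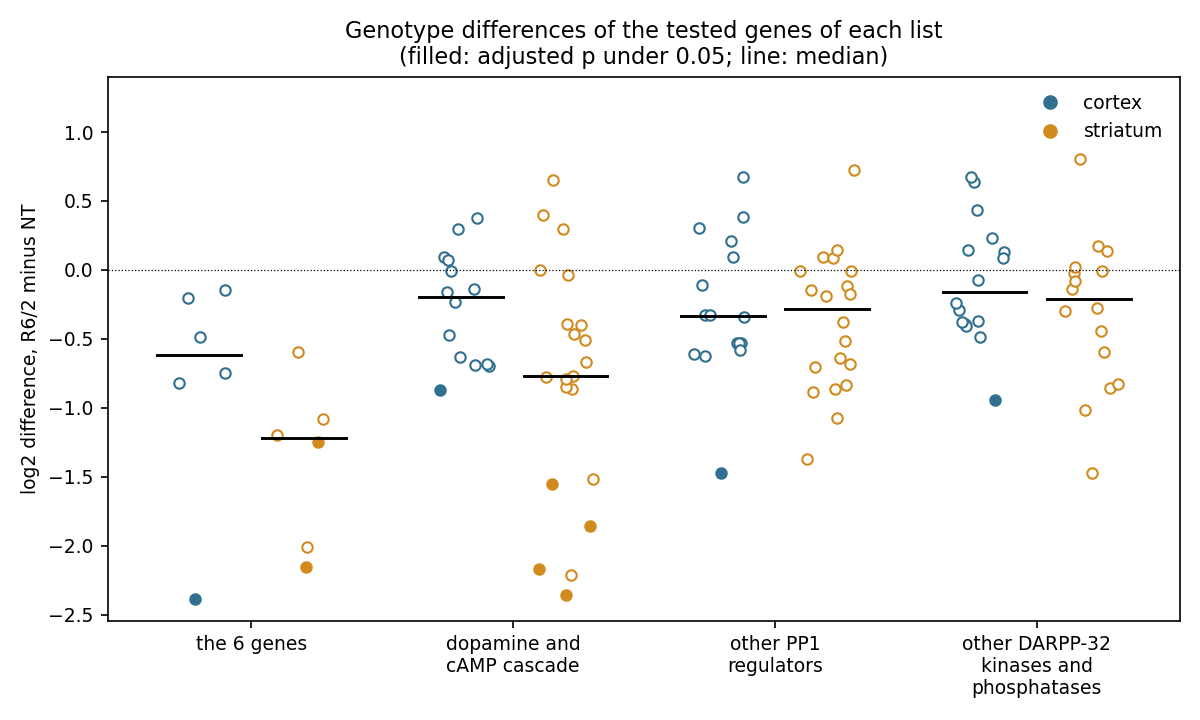
Log2 difference between R6/2 and NT mice for the 6 genes and for the tested genes of the 3 lists in cortex and striatum, with filled points where the adjusted p was under 0.05 and a line at the median. The cascade genes reach lower in the striatum (median −0.77) than those of the other PP1 regulators (−0.28) and of the kinases and phosphatases (−0.21).

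Reads of each gene fall into 4 classes. Known isoforms match an annotated transcript, incomplete splice matches (ISM) carry only part of its junctions, NIC isoforms combine annotated splice sites in a way not annotated, and NNC isoforms use a splice site that is not annotated. Over all genes and samples, 76.5% of reads were Known, 15.9% ISM, 4.46% NIC and 3.17% NNC. Ppp1r1b was read almost wholly as known isoforms (95.2%, with 1.106% ISM, 1.33% NIC and 2.35% NNC), and Ppp1ca likewise (92.9%, 4.24%, 0.465% and 2.40%). Ppp1cb (85.9% Known, 9.57% ISM) and Ppp1cc (85.7%, 10.6%) lay between. Ppp1r1a had the largest share of NIC reads, 15.0%, beside 68.8% Known and 14.0% ISM. Ppp1r9b was the opposite of Ppp1r1b, with 79.5% ISM and 18.8% Known.

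The many isoforms of Ppp1r1b outside the annotation were rare. Its 208 NIC reads were spread over 27 isoforms, 18 of them with 1 read, and its 367 NNC reads over 54 isoforms, 35 of them with 1 read, while 6 known isoforms held 14895 reads. In striatum R6/2 4, the shallowest R6/2 library there, Known reads made up 91.4% and ISM reads 3.29%. Mean Known shares were 94.9 ± 1.14% in NT and 93.4 ± 1.36% in R6/2 striatum and overlapped.

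Of the reads of Ppp1r9b, 313 belonged to 1 ISM isoform with a single exon of 1595 nt, which is the length of the last annotated exon (chr11:95005305-95006899). Its complete transcript, Ppp1r9b-001 of 4508 nt, had 93 reads. The ISM share was 87.7 ± 10.2% in NT cortex, 82.5 ± 4.83% in R6/2 cortex, 84.1 ± 12.2% in NT striatum and 75.9 ± 14.4% in R6/2 striatum, and all ranges overlapped. The expression values of Ppp1r9b given above therefore rest mainly on reads of its last exon.

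The ISM share of Ppp1cc varied most in NT striatum, at 15.1, 3.86, 54.5 and 40%, against 28.3, 17.5, 22.9 and 37.5% in R6/2 striatum. The lowest share was that of NT 2, the sample with 518 reads, and the 2 highest were those of the samples with 22 and 5 reads. In the cortex it was 21.1, 6.58, 5.88 and 7.02% in NT and 9.09, 6.06, 9.43 and 8.33% in R6/2 samples. No class share of any of the 6 genes that could be tested passed the edgeR test of class usage, with R6/2 against NT in the cortex (5 genes tested), in the striatum (6) or between regions in NT mice (6). There 0.0165%, 0.0127% and 0.0429% of all genes were called, no unadjusted gene p of the 6 was under 0.05, and the lowest adjusted p in any alternative was 0.638.

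**Figure D4:**
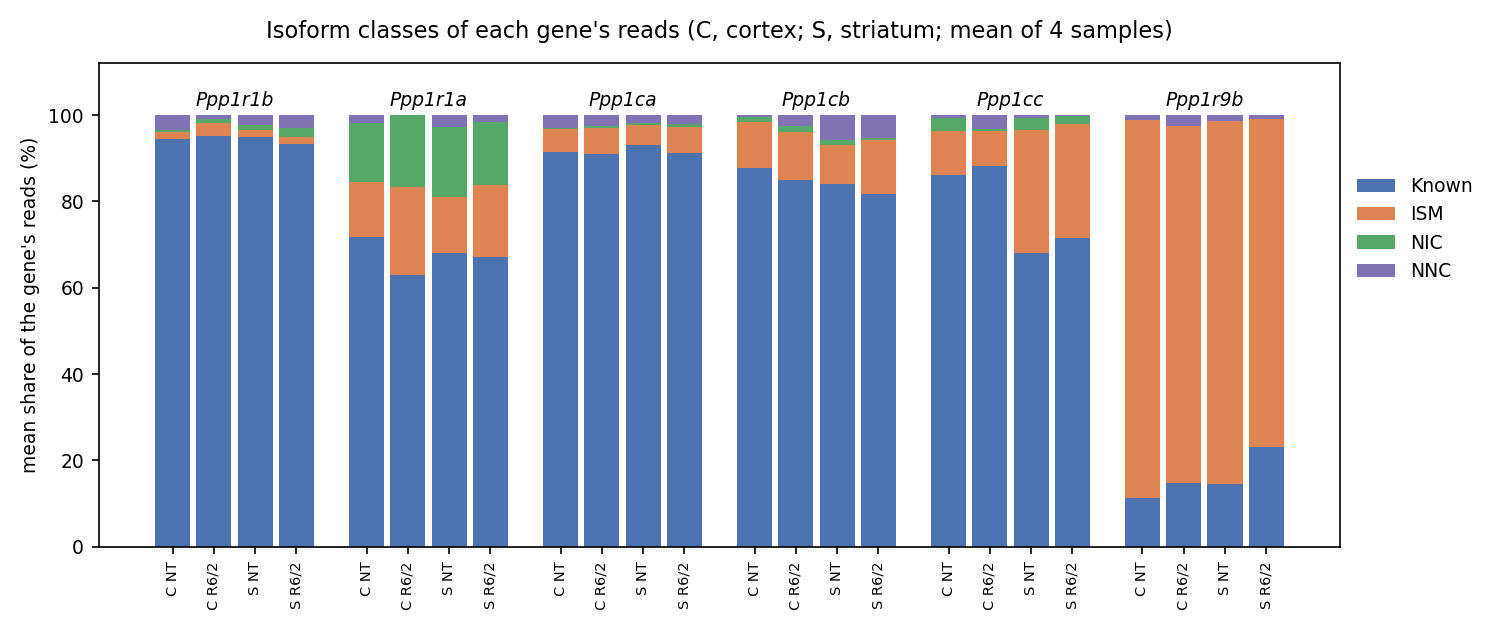
Mean share of Known, ISM, NIC and NNC reads of each gene in the 4 groups (C, cortex; S, striatum; n = 4). Ppp1r1b and Ppp1ca are almost wholly Known in every group, and Ppp1r9b is mostly ISM, with group means of 75.9 to 87.7%.

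Isoform shares were taken over complete reads, those of Known, NIC and NNC isoforms. The main isoform of Ppp1r1b, Ppp1r1b-001 with 7 exons and 2001 nt, held 14726 reads. Its share in striatum was 95.1, 95.8, 96.2 and 94.9% in NT and 93.0, 93.1, 93.0 and 92.8% in R6/2 samples. The groups did not overlap, with a mean of 95.5 ± 0.620% against 93.0 ± 0.146%, as was so, in the lower direction, for the most-read isoform of 4.67% of genes with enough striatal reads. In the cortex the shares were 94.98 ± 3.23% and 95.6 ± 5.44%, from 276 and 73 complete reads.

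The shorter isoform Ppp1r1b-002, with 6 exons and 1801 nt, was chosen after its values were seen, since it lies below the 5% share at which isoforms are otherwise named. Its first exon (chr11:98349996-98350629) starts within intron 1 of Ppp1r1b-001 and runs through exon 2, and its coding sequence of 474 nt against 582 nt lacks the first 36 codons and with them threonine 34, as in the exon shown above. In NT striatum it had 13 of 2613, 30 of 7101, 6 of 2190 and 2 of 489 complete reads, that is 0.498, 0.422, 0.274 and 0.409%. In R6/2 striatum it had 5 of 503, 9 of 797, 21 of 1193 and 3 of 235, or 0.994, 1.13, 1.76 and 1.28%. The shares did not overlap, with means of 0.401 ± 0.0931% and 1.29 ± 0.334%. The 95% Wilson interval for counting error was 0.296 to 0.602% in NT 2 and 1.15 to 2.68% in R6/2 3, the samples with the most reads of each group, and these did not overlap. The interval of NT 4 (0.112 to 1.48%) overlapped with all 4 R6/2 intervals. Those of R6/2 1 (0.425 to 2.31%), R6/2 2 (0.595 to 2.13%) and R6/2 4 (0.435 to 3.69%) overlapped with every NT interval. How many other minor isoforms have shares that do not overlap between genotypes was not counted. The edgeR usage coefficient was 1.197 on the natural log scale and did not pass (adjusted p = 0.385). In the cortex 2 reads, both in NT 1, and 1 read in R6/2 3 were found. As numbers of molecules, 51 of its reads were found in NT and 38 in R6/2 striatum, beside 12393 and 2728 complete reads of the gene.

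One rare isoform passed the test of single isoforms, in which 0.044% of all isoforms tested in the striatum did. TALONT000758628, an NIC isoform with 4 exons and 1099 nt, had 0, 2, 0 and 0 reads in NT and 4, 5, 2 and 0 reads in R6/2 striatum (edgeR adjusted p = 0.0326). It has 14 reads in all, 1 of them in R6/2 cortex. The test took isoforms with at least 10 reads over the striatal samples, and 11 of its reads there came from R6/2 and 2 from NT samples. It thus entered the test only through the group in which it was higher, so no difference between genotypes is concluded from this call. For Ppp1r1b as a gene, the striatal isoform usage gave an adjusted p of 0.101 in edgeR, which misses the threshold, where 0.0675% of genes were called. Over 11 alternatives this adjusted p ranged from 0.0406 to 0.617, and 2 of them called it.

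Ppp1r1a had 2 isoforms with substantial shares. Ppp1r1a-201, with 7 exons and 1295 nt in the files, held 694 reads, and the NIC isoform TALONT000685158, with 6 exons and 1234 nt, held 147. They differ by 61 nt and 1 exon, and exon 2, shown above, is 61 nt long. The files give no coordinates for the NIC isoform, so which exon it lacks is not known from them. GENCODE M21 holds 1 other Ppp1r1a transcript, Ppp1r1a-202, a processed transcript with 6 exons that lacks exon 2. The share of the NIC isoform was 22.2, 13.4, 17.3 and 18.9% in NT striatum and 12.5, 14.6, 20 and 20.6% in R6/2 striatum. It was 16.1 ± 7.02% in NT and 21.7 ± 10.5% in R6/2 cortex, and the ranges of all groups overlapped. Its usage coefficient between genotypes was −0.044 in the striatum and 0.11 in the cortex (edgeR adjusted p = 0.99997 and 0.99999).

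Ppp1ca and Ppp1cb were each read as 1 annotated transcript. Ppp1ca-201, with 7 exons and 1379 nt in the files, had 6194 reads and means of 96.5 to 97.7% in the 4 groups. Ppp1cb-001, the longest of the main transcripts with 5962 nt, had 1015 reads and means of 92.3 to 98.3%.

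Ppp1cc was read mainly as γ1, Ppp1cc-001 with 2384 nt and 841 reads, and to a lesser part as γ2, Ppp1cc-002 with 1442 nt and 103 reads, whose coding ends are shown above. The share of γ1 was 64.4, 83.3, 60 and 66.7% in NT striatum, from 45, 498, 10 and 3 complete reads, and 81.8 to 90% in R6/2 striatum. In the cortex it was 77.6 ± 10.0% in NT and 85.1 ± 3.06% in R6/2 mice. The γ2 form had mean shares of 15.1, 10.4, 16.7 and 10.8% in NT cortex, R6/2 cortex, NT striatum and R6/2 striatum, all overlapping. Pooled over the reads of a group, γ2 made up 8.81% in NT and 11.2% in R6/2 striatum, the reverse order, since 1 NT sample held most of the reads.

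A further transcript, Ppp1cc-009, annotated as a target of nonsense-mediated decay (2492 nt), was read 30 times and in NT mice only. It had 5 of 45, 21 of 498, 1 of 10 and 0 of 3 complete reads in NT striatum and 3 of 53 in cortex NT 4. Among complete reads of R6/2 mice it had 0 of 151 cortical and 0 of 160 striatal ones, which allows shares of up to 1.99% and 1.88%. The edgeR test of its usage in the striatum gave an adjusted p of 0.99997, so a difference between genotypes was not detectable at this depth.

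The complete reads of Ppp1r9b were too few for shares, with 12, 12, 55 and 41 in NT cortex, R6/2 cortex, NT striatum and R6/2 striatum. Ppp1r9b-001 held 9, 7, 41 and 36 of them and Ppp1r9b-002, a transcript with a later start (3095 nt), 2, 3, 9 and 3. The 4 NNC isoforms that reached 5% in a group (TALONT000740001, TALONT000740009, TALONT000740028 and TALONT000739928) did so with 1 to 5 reads in all. In isoform usage none of the genes tested was called between genotypes in the cortex (3 tested, 0.359% of all genes called) or between regions in NT mice (5 tested, 0.27%). None of these had an unadjusted gene p under 0.05.

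**Figure D5:**
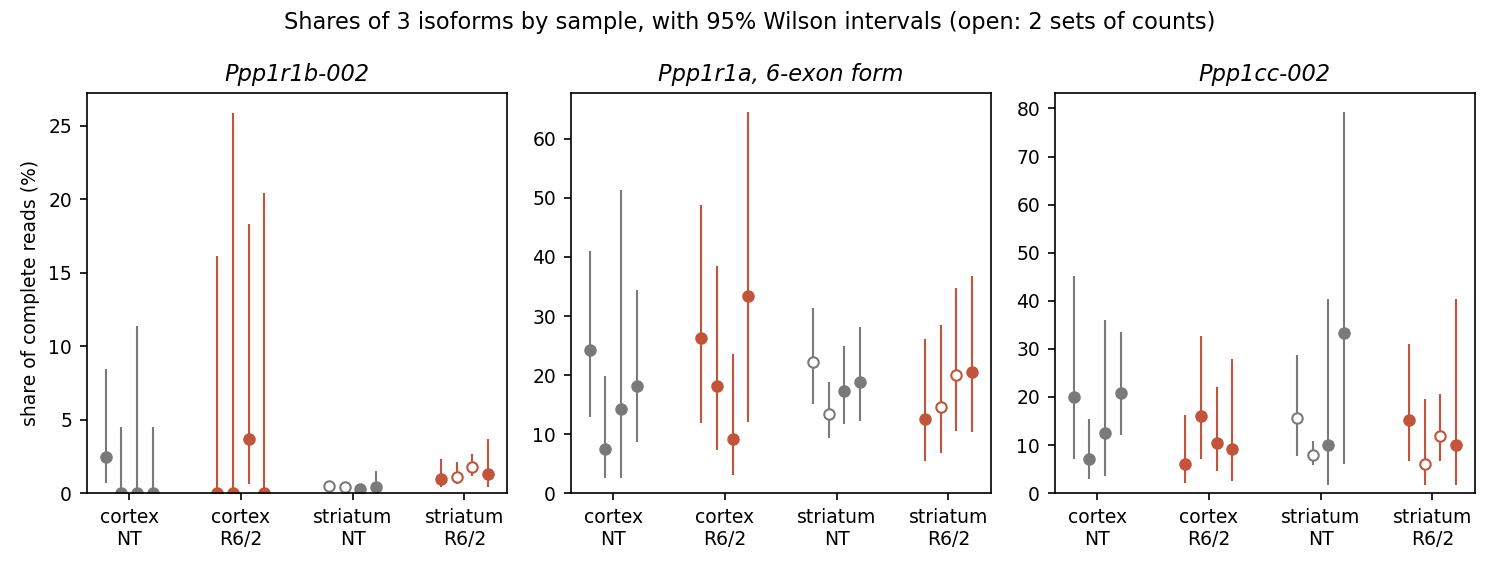
Share of complete reads held by Ppp1r1b-002, the 6-exon form of Ppp1r1a and Ppp1cc-002 in each sample, with 95% Wilson intervals for counting error and open points for samples with 2 sets of counts. Ppp1r1b-002 lies at 0.274 to 0.498% in NT and 0.994 to 1.76% in R6/2 striatum, whereas the other 2 isoforms overlap between all groups. Ppp1r1b-002 was chosen after its values were seen and did not pass the test of usage.

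The genes whose levels ran most alike with each of the 6 were found by Pearson's r of log2 CPM over the 16 samples, among 4756 genes with enough reads. The 16 points fall into the 4 groups and share their libraries, so r describes mainly the order of the groups. For Ppp1r1b they were Penk (0.986), Hpca (0.985), Necab2 (0.976), Rgs9 (0.971) and 1700037H04Rik (0.963). Penk, the enkephalin precursor of D2-type MSNs, had means of 142 ± 16.9 CPM in NT cortex, 31.9 ± 6.27 in R6/2 cortex, 5553 ± 673 in NT striatum and 680 ± 131 in R6/2 striatum, the order of the groups being that of DARPP-32. For Ppp1r1a they were Ctxn1 (0.937), Rgs7bp (0.918) and Tpm1 (0.906), and for Ppp1ca Rasgrp2 (0.916), Arpp21 (0.914) and Gnb5 (0.906). For Ppp1cb they included Slc6a6 (0.906) and Ndufs1 (0.893). For Ppp1cc they were Rab2a (0.894), Btg1 (0.860) and Ccng2 (0.851), and for Ppp1r9b Tsc22d4 (0.894), Car11 (0.874) and Tesc (0.862).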

How the data were processed

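The deposited values are counts: the authors prepared cDNA by template switching with 27 PCR cycles, made circular consensus reads, selected full-length molecules ending in poly(A), aligned these to mm10 by minimap2 (2.17-r941, per the labels), applied TranscriptClean and counted the reads of 815498 isoforms in each of 20 files with TALON, before its transcript filter and without normalization. No molecular identifiers were used, so intervals and the limit of 3 counts for a share of 0 cover counting error only. For 4 striatal samples a pair of count sets was summed. The labels describe them as raw data of a pair of replicates and do not say what was repeated.

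Gene counts were sums of Known, ISM, NIC and NNC reads. Other classes (genomic, antisense, intergenic) were left out. Expression was tested with edgeR 4.0.16 in R 4.3.3 (TMM, filterByExpr, glmQLFit, glmQLFTest) in the 8 samples of a region, or in all 16 for region and interaction, with Benjamini-Hochberg adjustment over all genes tested and a threshold of 0.05. All 6 genes passed the filter in each comparison. Usage of isoforms and classes was tested with diffSpliceDGE on isoforms or classes with at least 10 reads, with Simes p values per gene. The labels do not say that samples came from separate mice, so p values measure the spread between these samples. The scripts were first tested on simulated counts. The 6 genes and the lists were chosen with earlier results of these data known. Named isoforms hold at least 5% of complete reads on average in a group or passed the single-isoform test. At most 8 genes per list, and the 5 genes most like Ppp1r1b and 3 most like each other member, with a mean of at least 20 reads and a prior count of 2, were named. One of these genes is not reported here. Alternatives were RLE scaling, DESeq2 1.42.0, other filters and classes, sets of counts and samples, and the sample number as a block. Exons, transcript types and sequences are from GENCODE M21 (mm10). Python 3.11.15, numpy 2.4.6, pandas 2.3.3, scipy 1.17.1 and matplotlib 3.10.9 were used.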

Additional observations from a re-analysis of the deposited data

Results flagged for a closer look

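In each group of 4 samples, a sample was singled out when its gap to the nearest other sample exceeded Dixon's 95% critical share of the group's range, which chance does in about 1 of 20 groups. Of 88 groups tested for the 6 genes, 9 held such a sample. Ppp1cc in striatum NT 2 was at 420.2 CPM, above 25.3 to 69.7 in the other NT samples. Ppp1r9b in striatum NT 4 was at 172 CPM, above 96.9 to 98.2. In striatum R6/2 4, Ppp1r1b had 91.4% Known and 3.29% ISM reads. The ISM share of Ppp1cb was 15.8% in striatum NT 4, which has 19 reads of that gene, and the ISM share of Ppp1cc was 21.1% in cortex NT 1, which has 19 reads of it. The share of Ppp1cb-001 was 100% in cortex R6/2 1 and 88% in striatum R6/2 4, and that of Ppp1cc-009 was 5.66% in cortex NT 4, with none in the other cortical NT samples. The part of depth in these values was not tested.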

How the results depend on the processing

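The fall of Ppp1r1b in R6/2 cortex and the region differences of Ppp1r1b, Ppp1r1a and Ppp1ca in NT mice and of Ppp1r1b in R6/2 mice kept direction and call in every alternative run. The striatal calls did not, and the cause was not tested unless fewer samples were fitted. The count of genes in the cortex (198) became 95 without ISM reads and 47 with all 16 samples in 1 fit. In the striatum (39) it became 21 with RLE, 124 with DESeq2, 140 without a filter, 13 without ISM reads, 59 with genomic reads, 0 with the block, 20 with the first set of counts, 332 with the number of sets as a term and 145 with all 16 samples. The NT region count (1103) became 2198 with 1-set samples and 584 with the 2 groups alone, and the R6/2 region count (840) 1524 with 1-set samples. The interaction count (1) became 0 with RLE, without ISM reads, with the block or with the first set, 2 with DESeq2 or genomic reads and 3 with the number of sets as a term.

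Striatal Ppp1r1a (log2 difference, adjusted p) was −1.997 (0.0212) by DESeq2, −1.93 (5.30e-04) without a filter, −1.91 (5.48e-04) with the number of sets as a term, −2.08 (0.0124) in 1-set samples, −1.72 (0.0341) in 2-set samples and −1.98 (0.0152) with all 16. Striatal Ppp1ca was −1.22 (0.0547) with RLE, −1.20 (0.119) without a filter, −1.33 (0.0598) without ISM reads, −1.18 (0.0594) with genomic reads, −1.22 (0.0627) with the first set, −1.23 (0.0846) in 1-set and −1.24 (0.0724) in 2-set samples. Striatal Ppp1cb was −0.61 (0.0454) and Ppp1r9b −1.14 (0.00971) with the number of sets as a term, and Ppp1r9b was −1.17 (0.0331) by DESeq2. Striatal Ppp1cc was 0.77 in 1-set samples. In the NT region comparison Ppp1cc was −1.73 in 1-set samples (0.00339) and Ppp1r9b 1.15 (0.0781) with the 2 groups alone. In R6/2 mice, 1-set samples gave 0.97 (0.0463) for Ppp1r1a, −0.0021 for Ppp1ca and −0.41 for Ppp1cb, and the first set gave 0.050 for Ppp1cc. The interaction of Ppp1ca was −1.001 (0.0264) by DESeq2. Ppp1r9b did not pass the filter without ISM reads. DESeq2 gave no adjusted p for striatal Ppp1cc.

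Correlations between the deviations of same-numbered samples ran from −0.57 to 0.62 and were of mixed sign in each pair of groups, with 3 of 4 above 0 for R6/2 cortex and striatum (−0.041 to 0.398), so the numbers were not taken to pair the samples. With the number as a replicate block, striatal Ppp1r1b was −2.14 (0.0937) and Ppp1ca −1.24 (0.199), and in NT mice Ppp1cc was −0.14 and Ppp1r9b 1.05 (0.0740).

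Counts of genes with changed isoform usage were 28 with the F test and 7 with known isoforms only in the cortex (11), 17 with the F test, 20 with the number of sets as a term and 0 with the block, with ISM added, with known isoforms only or with the first set in the striatum (3), and 22 with the F test and 1 with the block between regions (10). For class usage they were 2 at a minimum of 5 or of 20 reads and 4 with the F test in the cortex (1), 0 at 20 reads or with the first set and 2 with the number of sets as a term in the striatum (1), and 5 at 5 reads, 12 with the F test and 0 with the block between regions (3). Usage coefficients, none of them called, turned sign for Ppp1r1a with the first set in the striatum (0.10) and for Ppp1r9b between regions with the block (0.019, class usage −0.025) and with ISM added (0.14).

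Leaving out 1 sample at a time gave counts of 95 (without cortex R6/2 3) to 300 (without cortex NT 1) in the cortex, 3 (without striatum R6/2 1 or 2) to 38 in the striatum, 828 to 1165 between regions in NT mice, 544 (without cortex R6/2 1) to 1035 in R6/2 mice and 0 to 1 for the interaction. In the cortex the log2 difference was −2.47 to −2.26 for Ppp1r1b, −0.98 to −0.65 for Ppp1r1a and −0.48 to 0.11 for Ppp1cb. In the striatum it was −2.35 to −1.91 for Ppp1r1b, −1.30 to −1.15 for Ppp1ca and −1.44 to 0.53 for Ppp1cc. It was −1.19 to 0.83 for Ppp1cc and 0.80 to 1.52 for Ppp1r9b between regions in NT mice, −0.081 to 0.199 for Ppp1cb in R6/2 mice and −1.05 to 1.01 for the interaction of Ppp1cc. Isoform usage counts were 1 to 15 in the cortex, 0 to 6 in the striatum and 0 to 12 between regions, and class usage counts 0 to 4, 0 to 1 and 0 to 21. The isoform usage coefficient of Ppp1r1a was −0.12 to 0.37 in the cortex, −0.12 to 0.047 in the striatum and −0.14 to 0.30 between regions, and that of Ppp1r9b −0.059 to 0.037 between regions. Class usage coefficients in the cortex were −0.35 to 0.22 for Ppp1ca, −0.13 to 0.21 for Ppp1cc and −0.050 to 0.39 for Ppp1r9b, in the striatum −0.20 to 1.30 for Ppp1cc, and between regions −0.15 to 0.26 for Ppp1r1a, −0.23 to 1.22 for Ppp1cc and −0.12 to 0.38 for Ppp1r9b. Depth limits the cortical values of Ppp1r1b, Ppp1r1a and Ppp1r9b and all isoform shares of Ppp1cc and Ppp1r9b, which rest on few reads.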
